A study of Mus musculus with 12 samples.

Results

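The genes described here are 5 of the 754 genes in an expression table of mouse bone marrow cells: H2-K1 and H2-T23, which encode heavy chains of MHC class I molecules, Psmb8 and Psmb9, which encode catalytic subunits of the immunoproteasome, and Tap2, which encodes one chain of the peptide transporter TAP. They were chosen by their symbols, with earlier results of these same data known. No p-value is therefore given for any of them, and their values are a description.

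The libraries came from marrow of the femurs of male C57/BL6 wild-type mice and of Adrb3-/- mice, which lack a beta-type receptor for noradrenaline. Haematopoietic stem cells (HSCs) were isolated by flow cytometry directly into Trizol LS on day 3 after surgery. The groups were Adrb3-/- mice with ICH, wild-type mice with ICH, Adrb3-/- mice with sham surgery and wild-type mice with sham surgery, 3 libraries each. ICH is the label's abbreviation for the operation that was not sham, and no age is given. The genotype label names no promoter or cell type that would restrict the deletion, the design names 6 mice of each genotype, and Adrb3 itself was not analysed here. Values are counts multiplied by one factor per library, called scaled counts below.

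MHC class I molecules display short peptides from inside the cell to cytotoxic T cells and natural killer cells. Proteins are cut by the proteasome, whose immunoproteasome form carries Psmb8 and Psmb9 in place of constitutive subunits. TAP pumps the peptides into the endoplasmic reticulum, where they are loaded onto the heavy chain. H2-K1 is a classical class I molecule that presents a wide range of peptides. H2-T23 is a nonclassical mouse class I molecule, also called Qa-1, that is recognised by receptors of natural killer cells. Interferons are the best known inducers of all 5 genes, and HSCs, like nearly all nucleated cells, carry class I molecules.

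One library, wild-type sham replicate 1, stood apart and is left out of every mean and change below. Its positive-control probe reached 79 counts, against 6278 to 44207 in the other 11 libraries, and its log2 values correlated with theirs at 0.0902 to 0.169, against at least 0.838 among those 11. Its values were 1768 scaled counts for H2-K1, 605 for H2-T23, 605 for Psmb8 and the listed minimum of 20 for Psmb9 and Tap2. Wild-type sham means therefore rest on 2 libraries. The gene counts of the 11 libraries summed to 110740 to 556407, with the lowest total in Adrb3-/- ICH replicate 2. Genes listed at 20 numbered 104, 243 and 61 in Adrb3-/- ICH replicates 1, 2 and 3, against 27, 28 and 40 in wild-type ICH libraries. In Adrb3-/- ICH replicate 2, 20 counts were worth 103.2 scaled counts, so genes listed at 20 there may be listed too low. All 5 genes were above background in the mean of the 11 libraries, as were 674 genes of the table.

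The expression of stem cell markers and of other lineages was measured in the same libraries. The stem and progenitor markers Kit, Cd34, Flt3, Gata2 and Cebpa were measured, although Kit, the stem cell factor receptor, was at the listed minimum in Adrb3-/- ICH replicate 1. The neutrophil genes S100a8 and S100a9 together took 43.9% to 55.3% of the gene counts in 10 libraries and 23.2% in Adrb3-/- sham replicate 3. In bulk RNA, fewer cells of a type and less RNA per cell cannot be told apart.

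The genes share one neighbourhood. In the RefSeq annotation of GRCm38.p6, all 5 lie on mouse chromosome 17, and Psmb9, Tap1, Psmb8 and Tap2 follow each other with no other protein-coding gene between them. H2-T23 lies between H2-T24 and H2-T22, and H2-K1 between Vps52 and Ring1. The 200 bases before the annotated start of each gene are shown because class I and immunoproteasome promoters carry elements read by interferon and NF-kB signalling. H2-D1, the other classical class I gene measured, is shown beside H2-K1, and Tap2 is named only. Sequences are from RefSeq (GRCm38.p6), read 5′ to 3′ in the direction of the gene. Capitals mark the matches on either strand to GAANNGAAA (the core of an interferon-stimulated response element), GGGANTCCC (a palindromic NF-kB site, N being any base) and TTCNNNGAA (the core of an interferon-gamma activated site). The windows are chr17:34000348-34000547 on the minus strand for H2-K1, chr17:35262894-35263093 on the plus strand for H2-D1, chr17:36032702-36032901 on the minus strand for H2-T23, chr17:34197995-34198194 on the plus strand for Psmb8 and chr17:34187331-34187530 on the minus strand for Psmb9.
H2-K1: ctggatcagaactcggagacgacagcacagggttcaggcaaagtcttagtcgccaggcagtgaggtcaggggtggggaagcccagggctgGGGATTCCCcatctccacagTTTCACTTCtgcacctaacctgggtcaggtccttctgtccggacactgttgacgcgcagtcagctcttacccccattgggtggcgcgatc
H2-D1: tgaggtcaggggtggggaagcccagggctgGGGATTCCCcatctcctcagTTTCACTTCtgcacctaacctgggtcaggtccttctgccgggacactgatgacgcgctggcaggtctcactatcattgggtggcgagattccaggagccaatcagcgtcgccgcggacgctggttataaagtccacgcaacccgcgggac
H2-T23: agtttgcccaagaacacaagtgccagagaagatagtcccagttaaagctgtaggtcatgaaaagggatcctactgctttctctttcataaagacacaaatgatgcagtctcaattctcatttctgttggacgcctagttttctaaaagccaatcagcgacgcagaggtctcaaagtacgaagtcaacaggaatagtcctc
Psmb8: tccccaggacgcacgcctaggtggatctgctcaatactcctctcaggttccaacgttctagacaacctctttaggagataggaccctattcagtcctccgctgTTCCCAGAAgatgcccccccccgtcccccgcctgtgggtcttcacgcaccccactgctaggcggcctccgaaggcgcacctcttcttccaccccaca
Psmb9: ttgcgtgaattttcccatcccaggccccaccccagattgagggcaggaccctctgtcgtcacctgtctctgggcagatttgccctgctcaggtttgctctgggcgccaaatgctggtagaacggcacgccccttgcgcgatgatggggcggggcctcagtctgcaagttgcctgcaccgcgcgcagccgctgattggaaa

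H2-K1 and H2-D1 held both the NF-kB palindrome and the interferon element, with their first bases 20 bases apart in each. The palindrome was present in 154 of 32851 promoter windows of this length (0.469%), and the interferon element in 1641 of them. Psmb8 held one match to TTCNNNGAA, which 5.49% of windows hold. The H2-T23 and Psmb9 windows held none of these 3 motifs, and each held one CCAAT box, as did the H2-K1 window. CCAAT occurred in 29.3% of windows. The Psmb9 window shared 175 bases with that of Tap1, since both genes start from this stretch in opposite directions. Among the other 11 class I pathway genes measured, windows were found for 8, and H2-D1, H2-M3 and H2-Q10 held the interferon element. A match of letters is not evidence that a factor binds there.

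Across the 11 libraries, all 5 genes had a higher mean in Adrb3-/- than in wild-type cells, both after ICH and after sham surgery. The sign of the change after ICH turned for H2-T23 under quantile normalization, with library weights or without 1 library. The sign after sham surgery turned for H2-K1 without 1 library and for H2-T23, at -0.00024, with all 12 libraries. After ICH, the change was 0.56 or more on the log2 scale for H2-K1, Psmb8 and Tap2, and 0.23 or less for Psmb9 and H2-T23. No gene of the table, these 5 included, passed an adjusted p of 0.05 in either genotype comparison with limma and Benjamini-Hochberg adjustment over 674 genes (percent called 0 in both). An unadjusted limma p under 0.05 was found for 72 of the 674 genes after ICH and for 32 after sham surgery. Without any difference, a share of 0.05 of the genes would fall under it on average. The count after sham surgery did not exceed that share. Without Adrb3-/- ICH replicate 3, 49 genes passed the adjusted threshold after ICH, and 5 without Adrb3-/- ICH replicate 1. Without wild-type sham replicate 2, 1 gene passed after sham surgery. The description that follows goes from the presenting molecules to the transporter and the proteasome.

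H2-K1 had 3530.3, 5497 and 6867 scaled counts in Adrb3-/- ICH cells, against 3464, 3352 and 2862 in wild-type ICH cells. It had 4303, 5343 and 8082 in Adrb3-/- sham cells, against 2408 and 6069 in wild-type sham cells. Its 3 wild-type ICH libraries lay close together, whereas the 2 wild-type sham libraries were 2.52-fold apart and enclosed most other libraries. After ICH, the lowest Adrb3-/- library was only 1.02-fold above the highest wild-type library, so the groups barely separated.

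The group means of H2-K1 were 5298 ± 1677 in Adrb3-/- ICH, 3226 ± 320 in wild-type ICH, 5909 ± 1952 in Adrb3-/- sham and 4238 ± 2588 in wild-type sham cells (SD, n = 3, 3, 3 and 2). The log2 change of Adrb3-/- over wild type was 0.67 ± 0.39 after ICH and 0.58 ± 0.44 after sham surgery (SE). The 95% intervals of these changes, -0.20 to 1.53 and -0.39 to 1.54, both include 0. The sham change turned on the 2 wild-type sham libraries: it was -0.09 without replicate 2 and 1.24 without replicate 3. H2-K1, H2-D1 and the H2-Q genes are much alike in sequence, so how well the H2-K1 values separate it from the others is uncertain.

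H2-T23 had 589, 377 and 396 scaled counts in Adrb3-/- ICH cells, against 398, 450.4 and 415 in wild-type ICH cells. In sham mice it had 312, 398 and 416 in Adrb3-/- cells, against 279 and 306 in wild-type cells. Replicate 1 of the Adrb3-/- ICH group was the highest library, and the other two of that group were lower than all 3 wild-type ICH libraries. The pattern was thus unlike that of H2-K1: the lowest libraries were the wild-type sham ones, below all others.

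The means of H2-T23 were 454 ± 117 in Adrb3-/- ICH, 421 ± 26.7 in wild-type ICH, 375 ± 55.7 in Adrb3-/- sham and 293 ± 19.2 in wild-type sham cells (SD, n = 3, 3, 3 and 2). The log2 change of Adrb3-/- over wild type was 0.08 ± 0.24 after ICH and 0.35 ± 0.27 after sham surgery (SE). The change after ICH became -0.12 without Adrb3-/- ICH replicate 1, -0.02 after quantile normalization and -0.03 with library weights. Adding the library that stood apart brought the sham change to 0.00.

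Tap2 had 234, 356 and 357 scaled counts in Adrb3-/- ICH cells, against 220.4, 217 and 193 in wild-type ICH cells. Its sham values were 249.5, 323 and 394.5 in Adrb3-/- cells, against 220.1 and 297 in wild-type cells. All 3 Adrb3-/- ICH libraries lay above the wild-type ICH libraries, the lowest of them by 1.06-fold, and the sham groups overlapped. Tap2 pairs with Tap1 to form the transporter.

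Tap2 averaged 316 ± 70.8 in Adrb3-/- ICH, 210 ± 14.9 in wild-type ICH, 322 ± 72.5 in Adrb3-/- sham and 258 ± 54.0 in wild-type sham cells (SD, n = 3, 3, 3 and 2). The log2 change of Adrb3-/- over wild type was 0.56 ± 0.26 after ICH (95% interval -0.02 to 1.15) and 0.31 ± 0.30 after sham surgery (SE). The sham change was 0.09 without wild-type sham replicate 2, 0.15 without Adrb3-/- sham replicate 3 and 1.51 with the library that stood apart. Tap1, its partner, had changes of 0.28 ± 0.24 and 0.14 ± 0.27 in the same comparisons.

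Psmb8 had 1144, 1058 and 1170.3 scaled counts in Adrb3-/- ICH cells, against 748, 696 and 741 in wild-type ICH cells. It had 766, 889 and 1148 in Adrb3-/- sham cells, against 772 and 858 in wild-type sham cells. Here the ICH groups separated clearly, with the lowest Adrb3-/- library 1.42-fold above the highest wild-type one, while the sham groups overlapped. Psmb8 supplies the chymotrypsin-like activity of the immunoproteasome, which favours peptides that class I molecules bind.

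The means of Psmb8 were 1124 ± 58.6 in Adrb3-/- ICH, 728 ± 28.2 in wild-type ICH, 934 ± 195 in Adrb3-/- sham and 815 ± 60.7 in wild-type sham cells (SD, n = 3, 3, 3 and 2). The log2 change of Adrb3-/- over wild type was 0.63 ± 0.21 after ICH, a 1.54-fold difference (95% interval of the log2 change 0.15 to 1.10). After sham surgery it was 0.18 ± 0.24 (SE, interval -0.35 to 0.71), and 0.02 without Adrb3-/- sham replicate 3. The difference between these changes, the interaction of genotype and surgery, was 0.45 ± 0.32 on the log2 scale. Both intervals of Psmb8 are unadjusted, for a gene chosen with results of these data known, and neither is read as a test.

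Psmb9 had 372, 294 and 383 scaled counts in Adrb3-/- ICH cells, against 236, 354 and 308 in wild-type ICH cells. Its sham values were 211, 266 and 329.9 in Adrb3-/- cells, against 207 and 251 in wild-type cells. Both genotype comparisons overlapped. Psmb9 replaces the subunit with caspase-like activity.

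Psmb9 averaged 349.8 ± 48.4 in Adrb3-/- ICH, 299 ± 59.2 in wild-type ICH, 269 ± 59.6 in Adrb3-/- sham and 229 ± 31.5 in wild-type sham cells (SD, n = 3, 3, 3 and 2). The log2 change of Adrb3-/- over wild type was 0.23 ± 0.26 after ICH and 0.21 ± 0.29 after sham surgery (SE). With 1 library left out or another setting, it ran from 0.07 (without wild-type ICH replicate 1) to 0.36 (without wild-type ICH replicate 2) after ICH. After sham surgery it ran from 0.05 without Adrb3-/- sham replicate 3 to 1.36 with the library that stood apart, in which Psmb9 is at the listed minimum. Its lowest count was 57, in Adrb3-/- ICH replicate 2, where counting error alone was 13.2% of the value. Over the 5 genes and 11 libraries this error ran from 1.19% upward and was smaller in every other case.

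**Figure D1:**
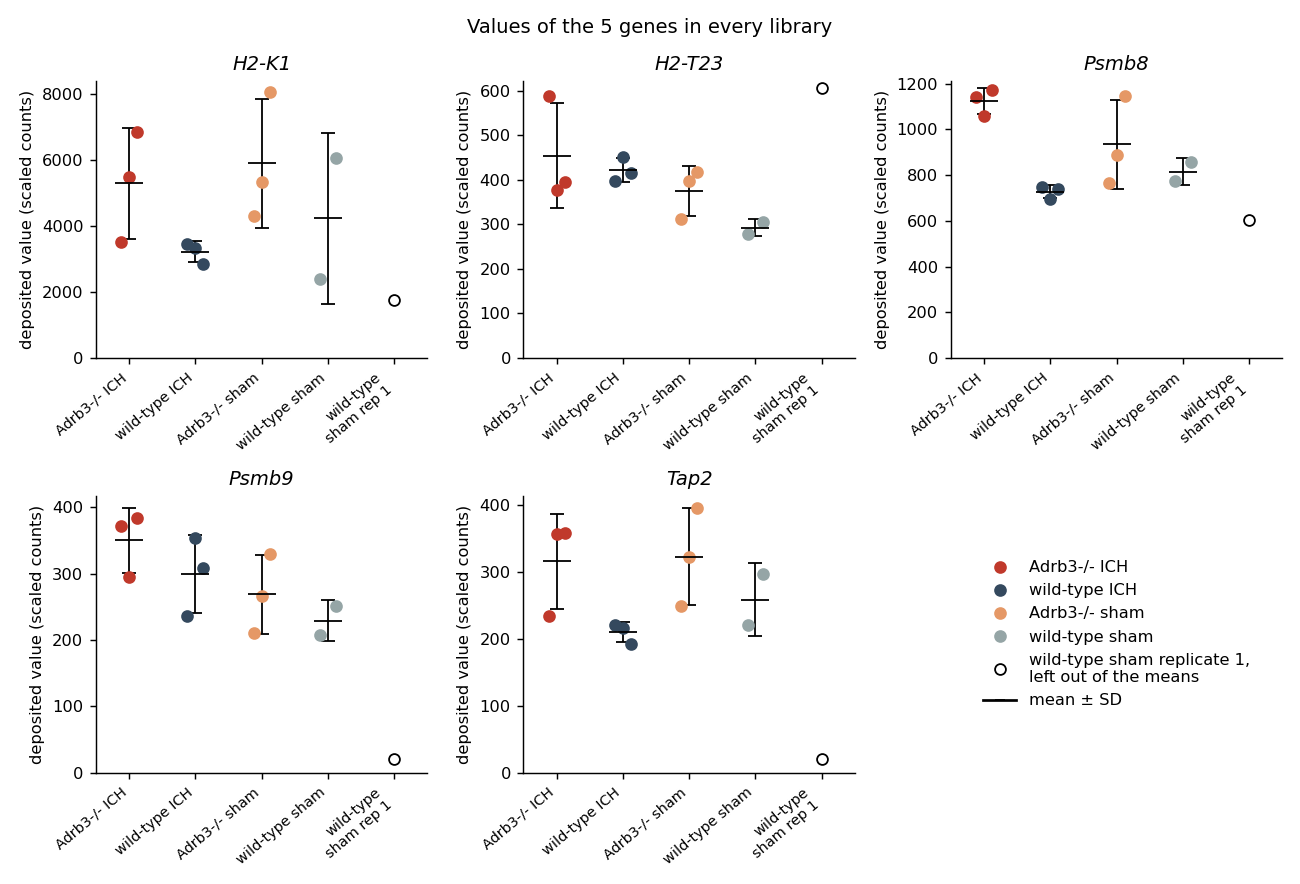
Each panel plots 1 gene, with the deposited value (scaled counts, linear axis from 0) against the group; points are libraries and bars the mean ± SD of the 11 libraries used. Psmb8 separates the ICH groups, with 1058 to 1170.3 in Adrb3-/- and 696 to 748 in wild-type cells; the open circle is wild-type sham replicate 1, left out of the means.

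After ICH, 3 of the 5 genes (H2-K1, Psmb8 and Tap2) had every Adrb3-/- library above every wild-type library, where percent called over all 674 genes was 4.9 in this direction and 8.75 in the other. After sham surgery 1 of the 5, H2-T23, did so, with percent called 10.4 in this direction and 16.3 in the other. These counts are part of the values that were known when the genes were chosen, and nothing is read from them. A log2 change above 0 was seen in 5 of 5 genes in both comparisons, against 40.5% of all genes after ICH and 38% after sham surgery. Averaged over both surgeries, the change of Adrb3-/- over wild type was 0.62 ± 0.29 for H2-K1, 0.44 ± 0.20 for Tap2, 0.40 ± 0.16 for Psmb8, 0.22 ± 0.19 for Psmb9 and 0.21 ± 0.18 for H2-T23 (log2, SE). Over all genes, 33.2% had an average above 0. The averages of the 5 kept their sign for all 5 genes in all 105 values recomputed with another setting or with a library left out (5 genes, 21 settings). All 105 values reuse the same libraries and are not independent. The size of the averages was less stable, running from 0.29 to 0.96 for H2-K1, 0.33 to 1.04 for Tap2, 0.31 to 0.47 for Psmb8, 0.14 to 0.80 for Psmb9 and 0.04 to 0.29 for H2-T23. The highest for Tap2 and Psmb9 and the lowest for H2-T23 came with all 12 libraries, and those of H2-K1 without wild-type sham replicate 2 (0.29) and replicate 3 (0.96).

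The effect of surgery within a genotype was less uniform, in comparisons that use the same libraries as the genotype comparisons. In Adrb3-/- cells the log2 change of ICH over sham was 0.39 ± 0.26 for Psmb9, 0.29 ± 0.21 for Psmb8, 0.25 ± 0.24 for H2-T23, -0.03 ± 0.26 for Tap2 and -0.16 ± 0.39 for H2-K1 (SE), and all 5 overlapped between the groups. Of the 5, 3 were above 0, against 32.9% of all genes. Percent called for such separation was 1.63 for genes with ICH higher and 10.2 for genes with ICH lower. In wild-type cells the same change was 0.52 ± 0.27 for H2-T23, 0.37 ± 0.29 for Psmb9, -0.16 ± 0.24 for Psmb8, -0.25 ± 0.44 for H2-K1 and -0.28 ± 0.30 for Tap2, so that 2 of 5 were above 0, against 28.3% of all genes. Here H2-T23 was higher in all 3 ICH libraries than in both sham libraries, and Psmb8 was lower in all 3, with percent called 3.12 for higher and 14.1 for lower. Averaged over genotypes, the ICH change was 0.39 ± 0.18 for H2-T23, 0.38 ± 0.19 for Psmb9, 0.06 ± 0.16 for Psmb8, -0.16 ± 0.20 for Tap2 and -0.20 ± 0.29 for H2-K1, 3 of 5 above 0, against 24.5% of all genes. The interaction was above 0 in 4 of 5, all but H2-T23, against 45.3% of all genes, and the largest in size was the 0.45 ± 0.32 of Psmb8.

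Several of these signs depended on 1 library or on the scaling. Among wild-type cells, H2-K1 had an ICH change of 0.42 without wild-type sham replicate 3, and Psmb8 one of 0.08 after quantile normalization. Among Adrb3-/- cells, H2-K1 reached 0.11 and Tap2 0.17 without Adrb3-/- ICH replicate 1. Library medians were 0.12 lower on the log2 scale in ICH than in sham libraries of either genotype, and 0.07 lower in Adrb3-/- than in wild-type libraries of either surgery, so the changes above are relative to a table that is not level. The ICH comparison in Adrb3-/- cells was the only one of 7 with genes past an adjusted p of 0.05 by limma: 7 genes, all lower in ICH, percent called 1.04, and none of the 5. They were Adgre1, Apoe, Cd163, Hpgds, Mertk, Mrc1 and Vcam1, of which 5 are macrophage markers of the list used here. Leaving out 1 library gave 0 genes without Adrb3-/- sham replicate 2 or 3 or any wild-type ICH library, and 2 without Adrb3-/- sham replicate 1. It gave 23 without Adrb3-/- ICH replicate 1, 3 without replicate 2 and 50 without replicate 3 of that group. In the wild-type ICH comparison 0 genes of the table had an unadjusted p under 0.05.

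The order of the group means sorted the 5 genes in a different way from their function. For H2-K1 and Tap2 it ran Adrb3-/- sham, Adrb3-/- ICH, wild-type sham, wild-type ICH from high to low, and each neighbouring pair of groups overlapped. For H2-T23 and Psmb9 it ran Adrb3-/- ICH, wild-type ICH, Adrb3-/- sham, wild-type sham. Among these neighbours only Adrb3-/- sham and wild-type sham for H2-T23 did not overlap. Psmb8 ran Adrb3-/- ICH, Adrb3-/- sham, wild-type sham, wild-type ICH, and its last 2 groups did not overlap.

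Library by library, H2-K1 and Tap2 moved together (Pearson r = 0.94 over 11 libraries), as did H2-T23 and Psmb9 (r = 0.80). H2-K1 with H2-T23 gave 0.01, Tap2 with H2-T23 gave -0.06 and Tap2 with Psmb9 gave 0.25. Psmb8 lay between, with 0.76 for Tap2, 0.68 for H2-K1, 0.57 for Psmb9 and 0.38 for H2-T23. Psmb8 and Psmb9, subunits of one complex, were thus less alike across libraries than Psmb8 and Tap2. Tap1 was nearer to H2-K1 (0.72), Tap2 (0.69) and Psmb8 (0.66) than to H2-T23 or Psmb9 (0.08 for each), although Tap1 and Psmb9 lie head to head. Psme2, a subunit of the proteasome activator, was nearest to H2-T23 (0.72) and near 0 for H2-K1 (-0.07) and Tap2 (0.01). These points share libraries, scaling factor and depth, and the correlations are a description.

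**Figure D2:**
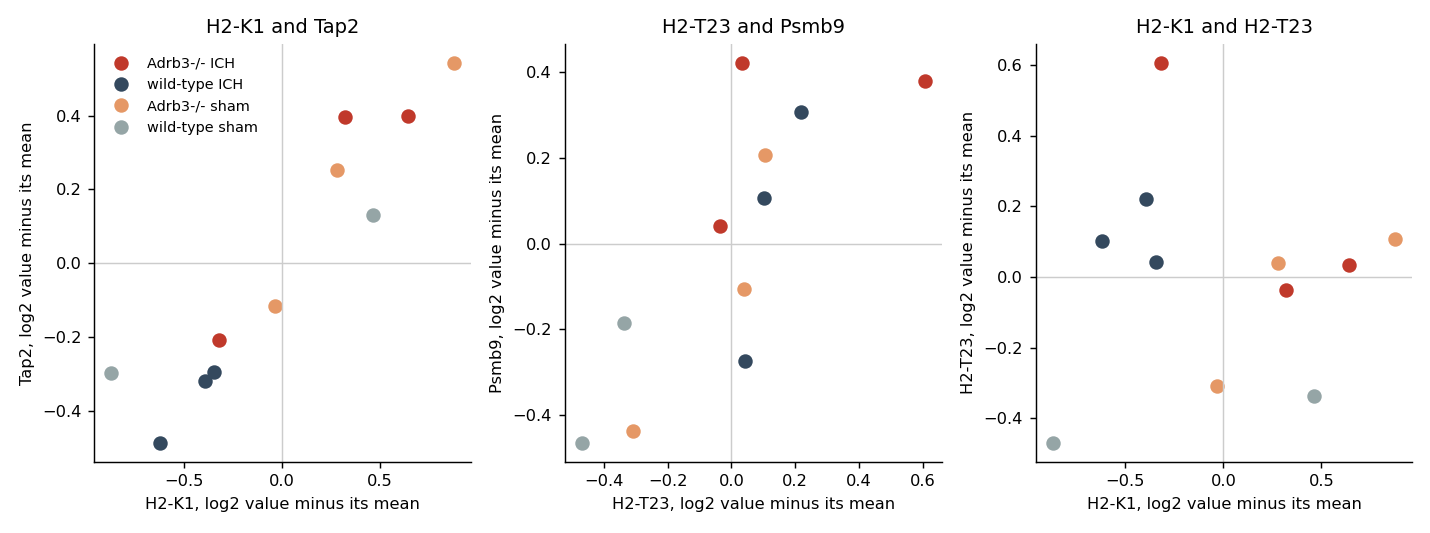
Each panel plots 2 of the genes against each other as log2 values minus the gene's mean over 11 libraries, 1 point per library, coloured by group. H2-K1 and Tap2 form a line (r = 0.94), H2-T23 and Psmb9 a looser one (r = 0.80), and H2-K1 and H2-T23 none (r = 0.01).

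The extremes came from few libraries. Averaged over the 5 genes after centring, the highest libraries were Adrb3-/- sham replicate 3 (0.42) and Adrb3-/- ICH replicate 3 (0.38), and the lowest was wild-type sham replicate 2 (-0.46). Adrb3-/- sham replicate 3, highest for H2-K1 and Tap2, is also the library in which S100a8 and S100a9 took the smallest share. Adrb3-/- ICH replicate 1, highest for H2-T23, had the weakest positive control of the 11, at 19.8% of their median. The part of these library differences in the gene values was not tested. From highest to lowest library the fold was 3.36 for H2-K1, 2.11 for H2-T23, 2.05 for Tap2, 1.85 for Psmb9 and 1.68 for Psmb8.

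Of the rest of the class I pathway, 11 genes were measured and above background in the mean of the 11 libraries. They were the heavy chain genes H2-D1, H2-M3, H2-Q1, H2-Q2 and H2-Q10, and the class I-like lipid-presenting molecules Cd1d1 and Cd1d2. The others were the transporter and loading genes Tap1, Tapbp and Calr, and Psme2. None of the 11 passed an adjusted p of 0.05 in any comparison by limma. The light chain B2m, the third immunoproteasome subunit Psmb10 and the class I transactivator Nlrc5 were not analysed here. After ICH, 9 of these 11 had a log2 change of Adrb3-/- over wild type above 0, with a median of 0.27, against 40.5% of genes and a median of -0.14 over the whole table. After sham surgery 8 of 11 did, with a median of 0.09, against 38% and -0.10.

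H2-Q1 had the highest change averaged over surgeries, at 0.47 ± 0.25, followed by Cd1d1 at 0.37 ± 0.20 (log2, SE). H2-D1 followed at 0.29 ± 0.20, with 3674, 2627 and 2648 scaled counts in Adrb3-/- ICH cells, against 2300.2, 2724 and 2387 in wild-type ICH cells. The 2 lowest were H2-Q2 at -0.55 ± 0.34 and Cd1d2 at -0.19 ± 0.40, both at the listed minimum of 20 in Adrb3-/- ICH replicate 2, without which they were -0.26 and 0.18. In Adrb3-/- ICH replicate 1, H2-Q2 (71.0 scaled counts), Cd1d2 (113.2) and H2-M3 (113.2) were below that library's own background of 123.6. The loading genes Tap1, Tapbp (tapasin, which bridges class I molecules to TAP) and Calr (calreticulin, a chaperone) had 0.21 ± 0.18, 0.18 ± 0.19 and 0.01 ± 0.17, and Psme2 had 0.21 ± 0.19. With the 5 genes included, 14 of 16 pathway genes were above 0 after ICH and 13 of 16 after sham surgery, and over 22 other settings each these counts ran from 13 to 15 and from 10 to 13.

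**Figure D3:**
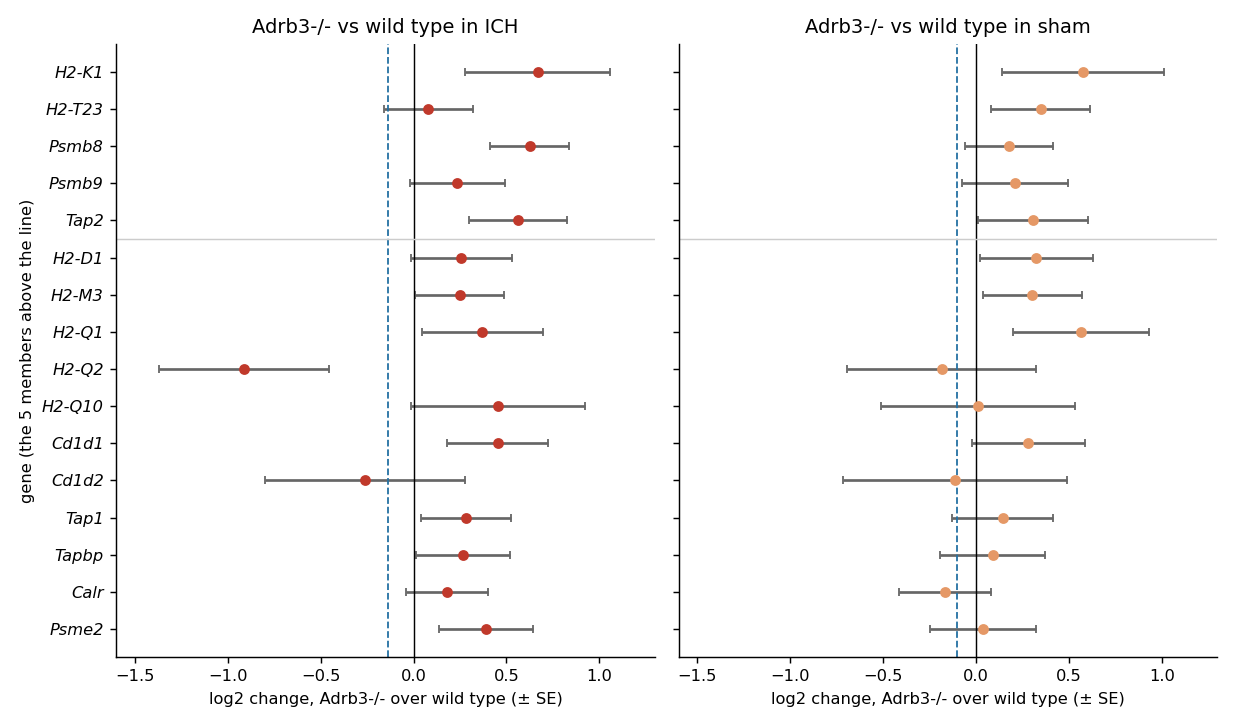
Points are the log2 change of Adrb3-/- over wild type ± SE for the 16 class I pathway genes, after ICH on the left and after sham surgery on the right; the dashed line is the median of all 674 genes. After ICH, H2-Q2 and Cd1d2 lie below 0 and the other 14 genes above it.

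MHC class II genes, which present peptides from outside the cell and are expressed by dendritic cells, B cells and macrophages, were the part of the table nearest in function. All 8 had changes of Adrb3-/- over wild type above 0 after ICH (median 0.44) and after sham surgery (median 1.10), against medians of 0.56 and 0.31 for the 5 class I and immunoproteasome genes. H2-Aa and H2-Ab1, the chains of I-A, were highest when averaged over surgeries, at 1.04 ± 0.31 and 0.90 ± 0.29, and H2-DMa and H2-DMb1, which load peptides, lowest at 0.43 ± 0.22 and 0.55 ± 0.23 (log2, SE). The ICH change in Adrb3-/- cells was below 0 for 8 of 8 class II genes (median -0.78), and among the 5 genes it was below 0 for H2-K1 and Tap2 and above 0 for Psmb8, Psmb9 and H2-T23. None of the 8 passed an adjusted p of 0.05 in any comparison. The difference between class I and class II genes was not tested.

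Interferon-inducible genes outside antigen presentation were also measured. Of 8 measured (Isg15, Mx1, Mx2, Irf7, Cxcl9, Cxcl10, Cxcl11 and Usp18), 3 had a change of Adrb3-/- over wild type above 0 after ICH, against 40.5% of all genes, and 1 after sham surgery, against 38%. Their medians were -0.22 and -0.25, against -0.14 and -0.10 for the whole table. Averaged over surgeries, Cxcl9 was highest at 0.05 ± 0.39 and Isg15 next at -0.05 ± 0.32. Mx1 was lowest at -0.39 ± 0.29 and Usp18 next at -0.36 ± 0.38 (log2, SE), or -0.08 for Usp18 without Adrb3-/- ICH replicate 2, where it was at the listed minimum of 20. Among 11 regulators and interferon signalling genes, 6 were above 0 after ICH and 7 after sham surgery, with medians of 0.18 and 0.09. Irf8 and Ifnar1, an interferon receptor chain, were highest at 0.47 ± 0.57 and 0.31 ± 0.17, and Socs1 and Ifnb1 lowest at -0.50 ± 0.39 and -0.43 ± 0.38. Of these, 3 rested on 1 library at the listed minimum of 20. Irf8 averaged -0.50 without wild-type sham replicate 3, its sham change being -0.25 in place of 1.68. Socs1 averaged -0.15 without Adrb3-/- ICH replicate 2, and Ifnb1 -0.06 without Adrb3-/- ICH replicate 1. Irf1, a direct activator of class I and immunoproteasome genes, had a change of 0.18 ± 0.34 after ICH and 0.09 ± 0.38 after sham surgery. No gene of these lists passed an adjusted p of 0.05.

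The genes whose log2 values most resembled the mean of the 5 across the 11 libraries were Ctnnb1 (r = 0.89), Stat3 (0.89), Eef1g (0.87), Ltb (0.84), Irf2 (0.81), Sesn1 (0.79), Itgb1 (0.79), Itga4 (0.78), Peli1 (0.77) and Cd34 (0.76), out of 486 genes compared. Least alike were Top2a (-0.86), Fcnb (-0.84) and Cxcr4 (-0.82). The middle 95% of all r ran from -0.73 to 0.74, with a median of -0.15. The mean of the 5 was taken from centred but not scaled values, so H2-K1, with the widest range (-0.87 to 0.88), weighed most in it. The 5 also had no single pattern, since H2-K1 with H2-T23 gave r = 0.01. Ranked by Spearman rho, 6 of these 10 genes stayed among the 10 most alike, and 5 to 9 did with 1 library left out (5 without Adrb3-/- ICH replicate 1, 6 without replicate 3 of that group). Among the listed genes, the median r was 0.64 for 9 other class I pathway genes, 0.63 for 8 class II genes, 0.44 for 8 regulators and -0.16 for 7 other interferon-inducible genes.

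**Figure D4:**
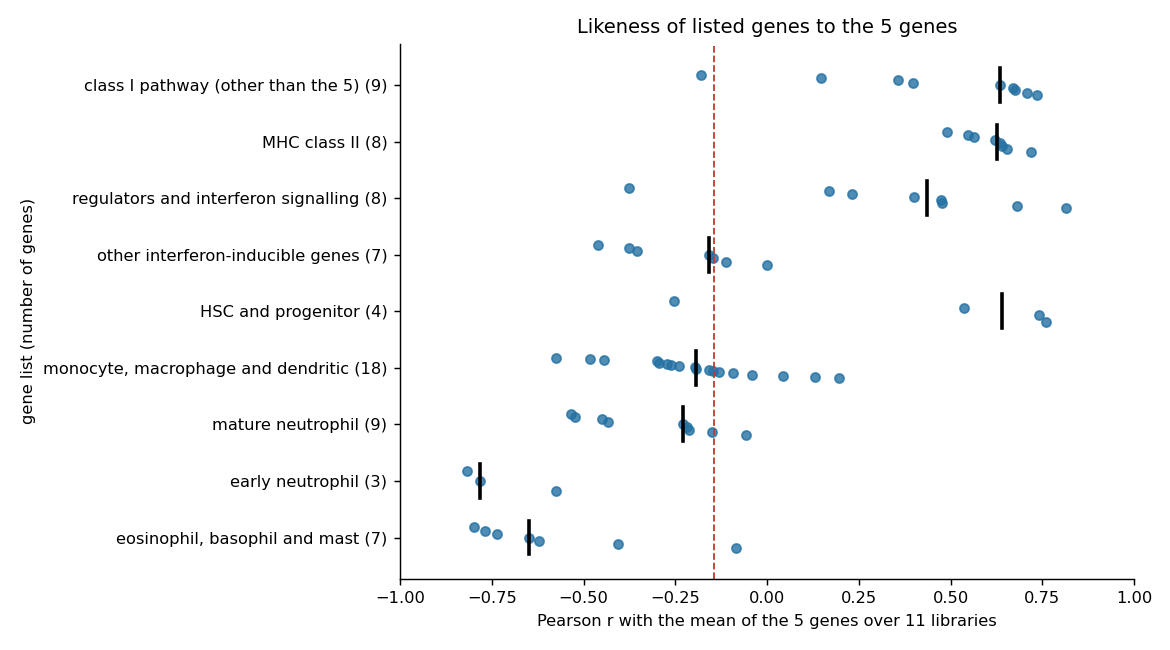
Each point is 1 gene, placed by its Pearson r with the mean of the 5 genes over 11 libraries; rows are gene lists, black bars their medians, and the dashed line the median of all 486 genes compared (-0.15). Class I, class II and stem cell genes lie mostly to the right, and early neutrophil and eosinophil, basophil and mast cell genes to the left.

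Marker lists of cell types differed in their correlation with the 5 genes across libraries. It was positive for stem and progenitor and B cell markers and negative for the other lists measured. The part of these markers in the results was not tested. The summed level of 5 stem and progenitor markers was 929 to 3672 in Adrb3-/- ICH, 1037 to 1525 in wild-type ICH, 1756 to 2919.5 in Adrb3-/- sham and 1034 to 2244 in wild-type sham libraries, and the mean log2 value of these markers correlated with that of the 5 genes at r = 0.59. For 3 early neutrophil markers (Mpo, Elane and Ctsg) r was -0.74 and for 8 eosinophil, basophil and mast cell markers -0.80.

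The eosinophil, basophil and mast cell sum was 1382 to 1868 in Adrb3-/- ICH, 3086 to 8591 in wild-type ICH, 2397 to 3202 in Adrb3-/- sham and 1879 to 7593 in wild-type sham libraries. Both ICH groups are therefore apart in this sum, in the comparison in which H2-K1, Psmb8 and Tap2 were apart the other way. Macrophage, monocyte and dendritic markers (18 genes) summed to 2517 to 6291 in Adrb3-/- ICH and 5723 to 6543 in wild-type ICH, and to 10039 to 17337 in Adrb3-/- sham and 4514 to 7602 in wild-type sham libraries. Their r with the 5 genes was -0.23, and 3 of 18 were above 0 for Adrb3-/- over wild type after ICH, against 14 of 18 after sham surgery. The 9 mature neutrophil markers, the list with the largest sums, summed to 288169 to 548877 in Adrb3-/- ICH and 262442 to 335341 in wild-type ICH, and to 94771 to 373650 in Adrb3-/- sham and 460218 to 464997 in wild-type sham libraries. For Adrb3-/- over wild type, 9 of 9 were above 0 after ICH and 1 of 9 after sham surgery, and their r with the 5 genes was -0.37. The r was -0.57 for 4 stromal and endothelial markers and -0.54 for Pf4, the 1 megakaryocyte marker measured. Of natural killer cell markers only Gzma and Nkg7 were measured (r = -0.80) and of B cell markers only Ms4a1 (r = 0.36), and no T cell marker of the list was analysed here.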

How the data were processed

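The deposited file is one table of 754 genes in 12 libraries, unit signal: per the values, each number is a whole count multiplied by one factor per library, and genes under 20 counts are listed at 20 (tested up to 1000 counts, where the largest deviation from a whole number was 0.0045). The signal values are as the authors deposited them. No source used here names the instrument, the probe panel or the scaling rule. Factors were recovered from the table.

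Genes were kept where the mean of 11 libraries was above background, 52.2 scaled counts (mean plus 2 SD of 8 negative control probes), which left 674 and removed 80. Wild-type sham replicate 1, a failed reaction, was left out. Log2(value + 1) was fitted with limma 3.58.1 in R 4.3.3 as 4 group means with 7 residual degrees of freedom, and p-values were adjusted by Benjamini-Hochberg over 674 genes, for 7 comparisons. The fit was tested on simulated data. Changes are on the log2(value + 1) scale, where the added 1 matters little at values of 20 or more. Genes listed at 20 can show too large a change, since 20 counts were worth 23.0 to 103.2 scaled counts in the 11 libraries. For H2-Q2, the change of Adrb3-/- over wild type after ICH was -0.91, and -0.33 without the library at 20. Comparisons of the 2 genotypes, and of ICH with sham, share libraries. Beyond the 6 mice of each genotype that the design names, nothing is said about the replicates except that they are separate samples. The p-values therefore measure the spread between samples. That spread is 1 estimate per gene shared by all 4 groups, so an SE is not that of the 2 compared groups alone. Library weights ran from 0.20 in Adrb3-/- ICH replicate 1 to 7.68 in Adrb3-/- sham replicate 2, so the spread was not equal.

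The 5 genes, the gene lists and the tests were chosen with earlier results of these data known. Named genes were the 5, the 2 highest and 2 lowest of each list by the genotype change averaged over surgeries, their partners, the 10 most and 3 least alike of 486 genes with at least 20 counts in the 11 libraries, and those past the threshold. One gene that this rule names is not reported here. Levels of different genes are not compared, since each has its own probe. Marker sums add values across probes and so mostly follow their highest genes. In wild-type ICH means, Prg2 made 3919 of 5189 in the eosinophil, basophil and mast cell sum. S100a8 and S100a9 made 136773 and 124337 of 302282 in the mature neutrophil sum. Counting errors cover counting only. Alternatives were other filters, pseudocount, scalings, weights, blocks and each library left out.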

Additional observations from a re-analysis of the deposited data

Results flagged for a closer look

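In wild-type sham replicate 1, the library left out of all comparisons, H2-K1 had 114 counts, above the library's background of 44.6 counts (mean plus 2 SD of its negative controls) and above its highest negative control of 42. It is given here because the signal stands above background in data that no comparison uses. H2-T23 and Psmb8, at 39 counts each, were below that background, and Psmb9 and Tap2 were at the listed minimum.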

How the results depend on the processing

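For the 5 genes, 37 of 755 changes recomputed under other settings had another sign, 17 of them in the interaction, 3 of 110 for Adrb3-/- over wild type after ICH (all H2-T23), 2 of 110 for that change after sham surgery and 0 of 105 for its average. With all 12 libraries, the log2 change of Tap2 for ICH over sham in wild type was 0.92, against -0.28 with 11. Genes past an adjusted p of 0.05 depended strongly on the setting. For Adrb3-/- over wild type they were 0, and 2 with no filter on low values after ICH and in the average of both surgeries. Leaving out 1 library gave 0 to 49 after ICH (49 without Adrb3-/- ICH replicate 3, 5 without replicate 1), 0 to 1 after sham surgery, 0 to 3 in the average, and 0 to 1 for ICH over sham in wild type, ICH over sham averaged and the interaction. For ICH over sham in Adrb3-/- cells, 7 genes became 0 with all 12 libraries, with library weights or with only these 2 groups, 2 with no filter, 4 with the filter over 12 libraries, 13 with a pseudocount of 20 and 1 with median centring. Leaving out 1 library gave 0 to 50 there (50 without Adrb3-/- ICH replicate 3, 23 without replicate 1). With the replicate number as a block, that count was 0, and the block moved no other count of genes past the threshold. Nothing says that the numbers pair the samples. For 15 pairs of same-numbered libraries, r of their deviations from group means ran from -0.42 to 0.15, with 2 over 0.1. Deviations within a group of 2 or 3 libraries sum to 0, so these r cannot decide whether samples were paired. Of 16 class I pathway genes, those above 0 for ICH over sham in wild type were 5, and 8 with all 12 libraries, 3 with at least 20 counts in all libraries, 10 with median centring and 11 with quantile normalization. Leaving out 1 library gave 6 to 13 for the interaction (10 with all 11; 6 without wild-type sham replicate 3). Pathway genes with every library above, recounted after seeing the data, were 3 for Adrb3-/- over wild type after ICH (4 to 6 with 1 library left out; percent of all genes 4.9), 2 after sham surgery (2 to 9; 0 with all 12; 10.4), 0 for ICH over sham in Adrb3-/- (0 to 3; 1.63) and 1 in wild type (1 to 5; 2 with median centring, 0 with all 12; 3.12). The share after sham surgery is near that of the whole table. Leaving out 1 library can only keep or raise a count of genes with every library above. Adding a library can only keep or lower it. The percents of all genes given beside these counts use all 11 libraries. Why the counts moved otherwise was not tested. Depth limits Adrb3-/- ICH replicate 2 most, where 1 count is 5.16 scaled counts, and wild-type sham means rest on 2 libraries.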
